A study of Caenorhabditis elegans with 6 samples.

Results

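The 10 genes described here are alpha- and beta-tubulin genes of Caenorhabditis elegans, tba-1, tba-2, tba-4, tba-9 and mec-12 for alpha-tubulin and tbb-1, tbb-2, tbb-4, tbb-6 and mec-7 for beta-tubulin. They were picked by gene symbol, and all 10 were found among the 12072 genes of the table, so 0 were absent. The study sorted RIS neurons from dissociated L1 larvae of the strain RIS::mKate, in which the flp-11 promoter drives the red fluorescent protein mKate, and set their RNA against that of whole L1 larvae of the wild-type strain N2. The titles list 3 RIS libraries and 3 reference libraries, both from larvae that hypochlorite treatment had synchronized and that hatched in M9 overnight. The RIS cells were dissociated and sorted into Trizol, whereas the reference larvae were frozen over liquid nitrogen, so cell type, strain and handling cannot be told apart. One sorting note speaks of AVK cells and mCherry, against RIS and mKate in titles, source and strain. The values are those of the authors' deposited table of this comparison, so neither the depth of a library nor the spread between libraries is known. Separate cultures are mentioned in no label, and the p-values reflect the spread among the libraries of the test alone, possibly technical. How many of the listed libraries entered the test is not stated.

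Microtubules are hollow polymers of alpha-tubulin and beta-tubulin, which join as a pair before they are added to the growing end. A worm has several genes for each, called isotypes, and cells mix them in different proportions. In C. elegans tba-1, tba-2, tbb-1 and tbb-2 serve nearly all cells, and tba-4 is also widely used. The touch receptor neurons build unusually wide microtubules that need the alpha-tubulin MEC-12 and the beta-tubulin MEC-7, and ciliated sensory neurons use TBA-9 and TBB-4 in their cilia. In what follows the first 5 are called ubiquitous and mec-7, mec-12, tba-9 and tbb-4 neuron-class. The divergent beta-tubulin gene tbb-6, whose expression is switched on in worms when mitochondrial respiration is blocked, was put in neither class. RIS is a single interneuron that releases GABA and neuropeptides and induces sleep, and it has no cilium.

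The sorted libraries carried the markers of RIS. All 6 RIS markers (flp-11, aptf-1, lim-6, ser-4, unc-25 and unc-47) were higher in RIS in the authors' deposited table, with log2 fold changes from 6.16 to 9.75, and flp-11 was selected for by the sort. All 8 panneuronal genes were higher as well, from 2.14 to 4.59 on the same scale in the authors' deposited table. Markers of muscle, hypodermis, intestine and pharynx were lower in 17 of 18 cases in the authors' deposited table, at a false discovery rate (FDR, the Benjamini-Hochberg adjusted p over all genes) below 0.05. The exception was the myosin gene unc-54 (0.98, unadjusted p = 0.0399, FDR = 0.0913 in the authors' deposited table). Over all genes the median log2 fold change was −0.78, so a gene at 0 on this scale is above the middle of the table. In a test against that median unc-54 was called higher (1.76, adjusted p = 0.0139), and 3 of the 5 intestine markers stayed lower. In bulk samples fewer cells of a type and less RNA per cell cannot be told apart.

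Of the 10 tubulins 1 rose in RIS and 1 fell. The alpha-tubulin gene mec-12 was 9.23-fold higher in RIS in the authors' deposited table (log2 fold change 3.21, approximate 95% interval 2.23 to 4.18, FDR = 0.00394). The beta-tubulin gene tbb-6 was lower there by a log2 fold change of −5.27 in the authors' deposited table (interval −7.03 to −3.50, FDR = 0.00471). The other 8 members did not pass an FDR of 0.05, and tba-4 was the further member at an unadjusted p below 0.05. Of all genes 9.84% were called higher and 26.4% lower at that threshold, so 1 of 10 members in each direction does not stand out from the table by its count. Relative to the all-gene median, where 16.6% were called higher and 20.3% lower, the calls on members were still those of mec-12 (3.99) and tbb-6 (−4.49).

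**Figure D1:**
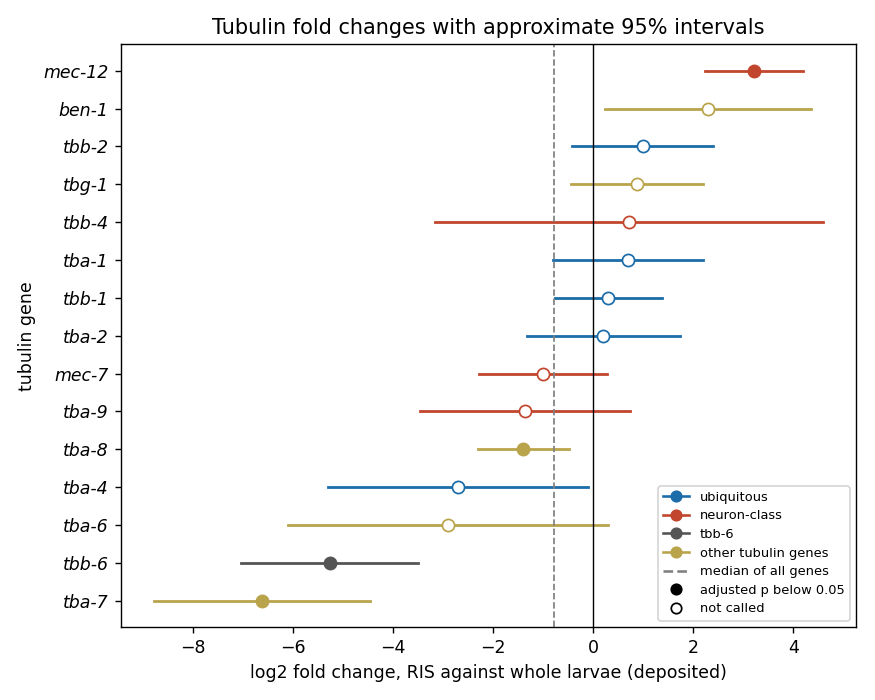
Deposited log2 fold change (RIS against whole larvae) of the 10 tubulins and 5 other tubulin genes, one row a gene, with approximate 95% intervals as bars; filled points have an FDR below 0.05. The point for mec-12 lies alone at 3.21, the interval of tbb-4 spans −3.16 to 4.59, and tbb-6 and tba-7 lie far to the left.

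Among the 4 neuron-class tubulins, mec-12 alone was called. The gene mec-7 encodes the beta-tubulin that pairs with MEC-12 in touch receptor neurons, and in the authors' deposited table its log2 fold change was −0.99 (interval −2.27 to 0.28, FDR = 0.199). The difference between mec-12 and mec-7 was 4.20 on the log2 scale (approximate interval 2.59 to 5.81, taking the errors of both genes as independent). For tba-9, an alpha-tubulin gene of ciliated sensory neurons, the authors' deposited table gave −1.36 (interval −3.45 to 0.74, FDR = 0.279). Its beta-tubulin counterpart in cilia, tbb-4, had 0.71 in the authors' deposited table with an interval of −3.16 to 4.59 (FDR = 0.769). That interval includes the fold change of mec-12 as well as a log2 fold change of −3.16, at a mean of 2.71 CPM per kb, the lowest level of the 10. CPM stands for counts in a library scaled to a common total, averaged over both groups, and is divided here by exonic length. For tbb-4 a difference was therefore not detectable at this precision.

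The ubiquitous tubulins had no call in either direction in the authors' edgeR-format test, and 1 of the 5, tba-4, had an unadjusted p below 0.05. The beta-tubulin gene tbb-2 had a log2 fold change of 0.99 (interval −0.42 to 2.40, FDR = 0.244) in the authors' deposited table, and tbb-1 had 0.30 (interval −0.77 to 1.38, FDR = 0.645). Of the alpha-tubulin genes tba-1 had 0.70 (interval −0.81 to 2.20) and tba-2 had 0.20 (interval −1.33 to 1.74) in the authors' deposited table, with FDR of 0.440 and 0.834. These 4 intervals span 0 and reach at most 2.40, and each leaves room for a rise of more than 2-fold. The fifth, tba-4, had −2.70 (interval −5.30 to −0.10, unadjusted p = 0.0437, FDR = 0.0976) in the authors' deposited table.

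Set side by side, the classes overlapped. The 5 ubiquitous tubulins ran from −2.70 to 0.99 with a median log2 fold change of 0.30 in the authors' deposited table, and 0 of them were called. The 4 neuron-class tubulins ran from −1.36 to 3.21 with a median of −0.14 in the authors' deposited table, and 1 of them was called, higher. Both medians lay above the −0.78 of all genes. Without mec-12 the neuron-class median was −0.99, and with tba-4 set aside the ubiquitous median was 0.50. In the order of the 10 fold changes, each member's interval overlapped that of its neighbour. Against mec-12, 7 of the 9 other members had intervals that ended below its lower bound of 2.23, all except tbb-2 and tbb-4. The difference itself had an approximate interval above 0 for 8 of 9, tbb-2 included (2.22, interval 0.51 to 3.94), and not for tbb-4 (2.49, interval −1.50 to 6.49).

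**Figure D2:**
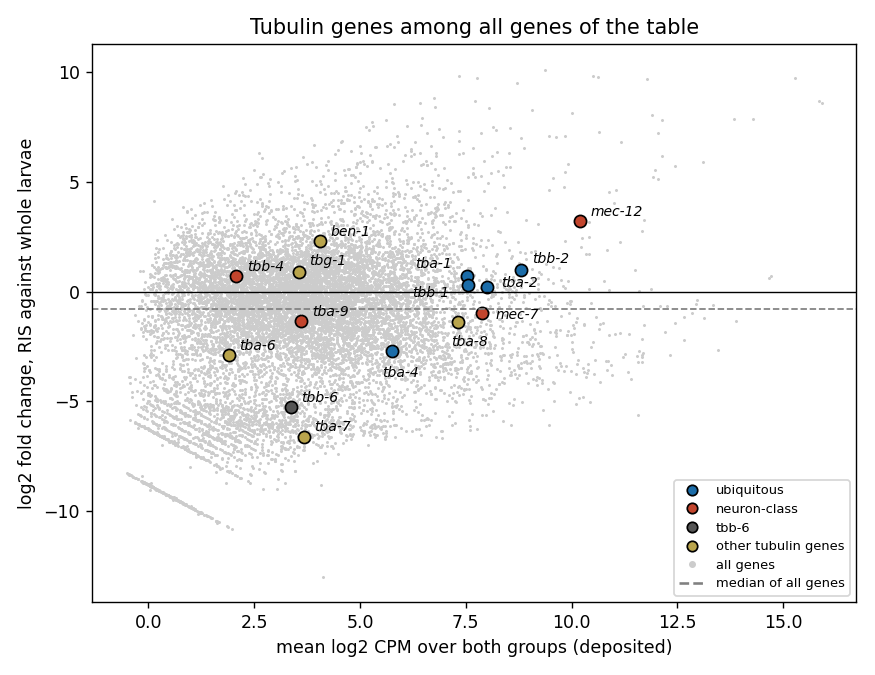
Mean log2 CPM over both groups (x) against log2 fold change (y) for all 12072 genes in grey, with tubulin genes coloured by class. The gene mec-12 lies farthest right and highest of the tubulin genes, and ben-1, at 2.29, is the next highest; the stripes at lower left are genes with no or few reads in RIS.

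Before levels are compared, the position and structure of the genes are given. The authors' deposited table names no genome build, and in its coordinates mec-12 (WBGene00003175) lies on the minus strand of chromosome III from 3131574 to 3139234. There tbb-2 (WBGene00006537) spans III 4015769 to 4017643, tbb-1 (WBGene00006536) III 10740868 to 10742461 and tba-4 (WBGene00006530) II 10918706 to 10920202. The X chromosome holds mec-7 (WBGene00003171, 7774859 to 7776689), tba-9 (WBGene00006535, 3252963 to 3256265) and tbb-4 (WBGene00006538, 9434452 to 9436893) in the authors' deposited table. On V lies tbb-6 (WBGene00006539, 12261804 to 12263368), and tba-1 (WBGene00006528) and tba-2 (WBGene00006529) are on chromosome I. In the Ensembl annotation of WBcel235 the coding lengths of the 10 genes were close to each other, from 1278 bases for tbb-6 to 1368 for tba-9. Exon numbers ran from 3 in tba-4 and tbb-1 to 9 in tba-9, and mec-12, with 5 exons, covers the longest stretch at 7661 bases. An exon of mec-12 shares 76 bases with Y53G8B.1 on the other strand, a gene at a mean of 13.9 CPM and a log2 fold change of −0.52 (FDR = 0.651) in the authors' deposited table. The shared stretch is 76 of the 1612 exonic bases of mec-12. The coding sequences of tubulin isotypes are much alike, and how reads matching several of them were counted is not given in the sources used here, so the split between close copies is uncertain.

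By mean level per length, mec-12 was the leading tubulin of the comparison. It stood at 725 CPM per kb, ahead of tbb-2 at 297 CPM per kb, tba-2 at 153 CPM per kb, mec-7 at 150 CPM per kb, tbb-1 at 127 CPM per kb and tba-1 at 121 CPM per kb. Far below these stood tba-4 at 38.7 CPM per kb, tba-9 at 7.55 CPM per kb and tbb-6 at 6.96 CPM per kb. Because the table holds no level per group, one was implied for each group from the fold change and the mean, with both groups weighing equally, and divided by the exonic length. On this scale mec-12 stood at 1309 CPM per kb in RIS and 142 CPM per kb in whole larvae. In whole larvae that is level with tba-2 (142 CPM per kb) and tba-8 (148 CPM per kb), a further alpha-tubulin gene, whereas in RIS the next alpha-tubulin, tba-2, stood at 163 CPM per kb. The order in RIS thus began with mec-12, tba-2 and tba-1 (150 CPM per kb) for alpha-tubulin. The fold changes of tba-2 and tba-1 differed by −0.49 with an approximate interval of −2.64 to 1.65, so their order in RIS is not resolved. The order of the beta-tubulins in RIS began with tbb-2 at 395 CPM per kb, tbb-1 at 140 CPM per kb and mec-7 at 101 CPM per kb. With 2 RIS libraries weighed against 3 reference libraries, mec-12 stood at 1560 CPM per kb in RIS and 169 CPM per kb in whole larvae. In whole larvae tba-2 then stood at 144 CPM per kb and tba-8 at 135 CPM per kb.

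**Figure D3:**
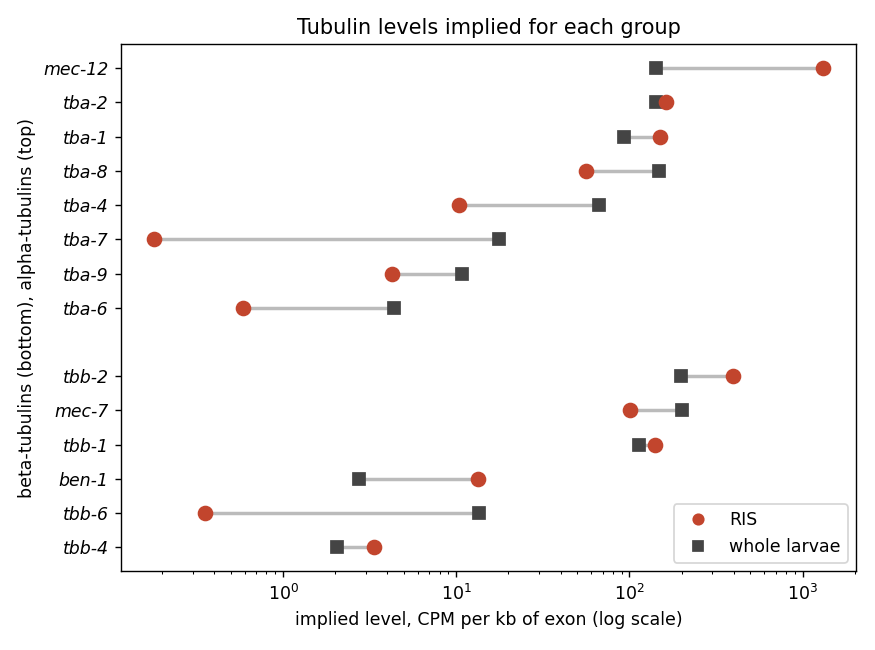
Level implied for RIS (circles) and whole larvae (squares) in CPM per kb of exon, on a log axis, for 8 alpha-tubulins above and 6 beta-tubulins below. A circle at 1309 CPM per kb for mec-12 lies to the right of every other point, and the circles of tbb-6, tba-6 and tba-7 lie below 1 CPM per kb; the plot carries no error bars because the table has no spread per library.

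In these implied levels the alpha-tubulin pool was made up differently in the groups, a description for which no test could be run. Of the summed alpha-tubulin level, mec-12 held 77.3% in RIS and 22.7% in whole larvae. At the bounds of its fold change, these shares ran from 75.7% to 78.1% in RIS and from 13.6% to 34.6% in whole larvae. The other genes and the mean level of mec-12 were held fixed, which keeps the RIS range narrow whatever the fold. That range is therefore no measure of the uncertainty of the share. With 2 RIS libraries weighed against 3 reference libraries, mec-12 held 80.1% in RIS and 26.7% in whole larvae. The shares of tba-2 (9.64% in RIS, 22.7% in whole larvae), tba-1 (8.85% and 14.8%), tba-8 (3.32% and 23.7%) and tba-4 (0.608% and 10.8%) were smaller in RIS. Part of this follows from arithmetic, since a larger mec-12 level lowers every other share. The summed alpha-tubulin level was 2.72 times as large in RIS as in whole larvae, and 0.798 times as large with mec-12 left out.

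Within the beta-tubulin pool no isotype held a share in RIS like that of mec-12. The gene tbb-2 held 60.5% in RIS and 37.5% in whole larvae. At the bounds of its fold change, with mean levels held fixed as before, these ran from 49.6% to 66.0% and from 22.2% to 50.6%. These ranges overlap. The share of mec-7 was 15.4% in RIS and 37.7% in whole larvae (8.54% to 23.0% and 29.1% to 42.9% at its bounds). As for mec-12, such ranges are no measure of the uncertainty of a share, so their overlap or separation resolves no difference. The fold change of mec-7 itself was not called (FDR = 0.199). The share of tbb-1 was 21.5% in RIS and 21.4% in whole larvae. The summed beta-tubulin level was 1.23 times as large in RIS as in whole larvae. The implied levels of all genes summed to 1075994 CPM in RIS and 924970 CPM in whole larvae. This ratio and the alpha-tubulin ratios above were not corrected for that difference in scale. These values describe transcripts per length unit and say nothing of the amounts of protein.

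**Figure D4:**
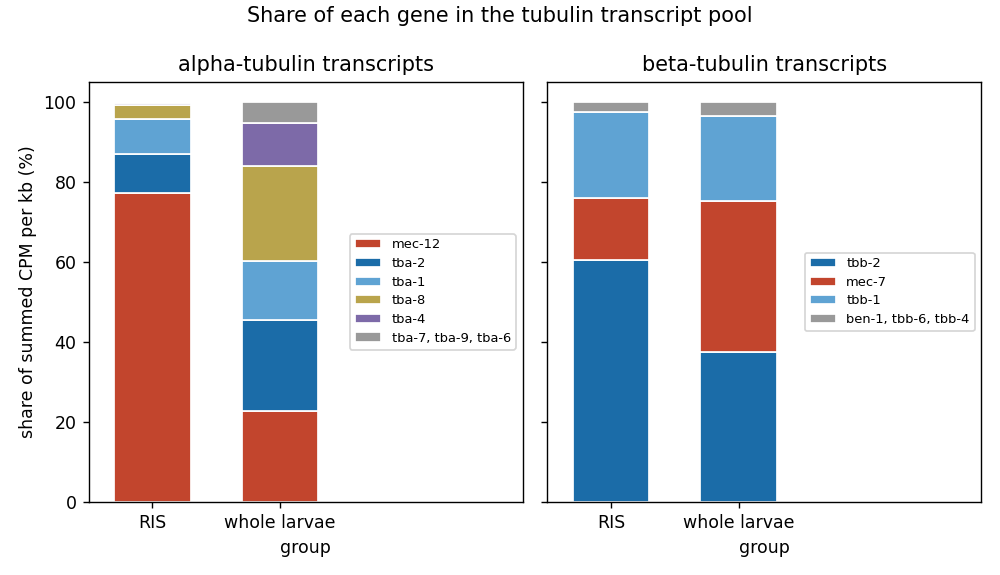
Share of each gene in the summed CPM per kb of alpha-tubulin (left) and beta-tubulin (right) transcripts, in percent, for RIS and whole larvae. The mec-12 segment takes 77.3% of the alpha-tubulin bar in RIS against 22.7% in whole larvae, while in the beta-tubulin bars tbb-2 takes 60.5% against 37.5%.

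Among the 10 members tbb-6 had the lowest fold change. Its implied level was 0.353 CPM per kb in RIS and 13.6 CPM per kb in whole larvae. Its fitted RIS level lay 6.92 on the log2 scale above that of the 170 genes whose recovered degrees of freedom show 1 group without reads, so it was not among those without reads in RIS. The size of so low a level still depends in part on the prior count of the fit, which is unknown.

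Most marker genes of the neurons that neuron-class tubulins are known from were lower or not called. Of 7 touch receptor neuron genes 6 were measured, and mec-14 was not found by its symbol. Of these 6, 0 were higher and 3 lower in the authors' deposited table, against 9.84% and 26.4% of all genes. The same number, 3, had an unadjusted p below 0.05 in that table. The gene mec-18 had a log2 fold change of −3.43, the channel gene mec-4 had −2.79 and the tubulin acetyltransferase gene mec-17 had −1.23 in the authors' deposited table. The uncalled ones were the channel gene mec-10 (−1.48), the transcription factor gene mec-3 (−0.81) and the stomatin-like gene mec-2 (0.23) in the authors' deposited table. Their median was −1.36, beside −0.99 for mec-7 and 3.21 for mec-12 in the authors' deposited table. Against the all-gene median 1 of the 6, mec-18, stayed lower, where 20.3% of all genes were lower. Of 13 genes of ciliated sensory neurons, 1 was higher (the transcription factor gene daf-19) and 8 were lower in the authors' deposited table, beside the same 9.84% and 26.4% of all genes. Their list median was −4.68, against −1.36 for tba-9 and 0.71 for tbb-4 in the authors' deposited table. The value of mec-12 lay within the range of the 8 panneuronal genes, from unc-64 (2.14) to snb-1 (4.59) in the authors' deposited table.

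The remaining tubulin genes were not enriched at the adjusted threshold. Of 6 listed, 5 were measured, and tba-5 was not found by its symbol. Of these 5, 0 were higher and 2 lower in the authors' deposited table, against 9.84% and 26.4% of all genes. Counts over so few genes do not set the list apart. The alpha-tubulin gene tba-7 had a log2 fold change of −6.62 (FDR = 0.00442) and tba-8 one of −1.39 (FDR = 0.0284) in the authors' deposited table, and tba-6 had −2.90 (FDR = 0.139). The implied RIS level of tba-7 was 0.180 CPM per kb, so its fold depends on the unknown prior count as that of tbb-6 does. The beta-tubulin gene ben-1, the target of the benzimidazole drugs that kill worms, had 2.29 (interval 0.23 to 4.35, unadjusted p = 0.0340, FDR = 0.0811) in the authors' deposited table. Set against the all-gene median ben-1 was called higher (3.07, adjusted p = 0.0311) and tba-8 lost its call (−0.62, adjusted p = 0.256). Exons of tba-6 and tba-7 overlap those of neighbouring genes, so their values are uncertain. The gamma-tubulin gene tbg-1, which nucleates microtubules, had 0.87 (FDR = 0.271) in the authors' deposited table.

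Most genes whose products act on tubulin were not called. The 6 lists together held 93 measured genes, with the 5 other tubulin genes described above, tba-7 and tba-8 among them, included. Of these 93, 11 were higher (11.8%) and 7 lower (7.53%) in the authors' deposited table, against 9.84% and 26.4% of all genes. Their median log2 fold change was 0.28 against −0.78. Relative to the all-gene median 22 of the 93 were higher and 3 lower, where 16.6% of all genes were higher and 20.3% lower. Of 10 measured tubulin modifying enzymes the ligase-like gene ttll-12 rose (3.98, interval 2.80 to 5.17, FDR = 0.00378) and mec-17, whose enzyme acetylates the alpha-tubulin MEC-12, fell (−1.23, FDR = 0.0470) in the authors' deposited table. The second acetyltransferase gene, atat-2, had 1.96 with an interval of −0.70 to 4.61 (FDR = 0.221) in the authors' deposited table. Among 20 genes of tubulin folding, the chaperonin subunits cct-1 to cct-8, the prefoldins and the tubulin cofactors, 0 were higher and 1 was lower, pfd-6 (−1.25, FDR = 0.0431), in the authors' deposited table, and no further member had an unadjusted p below 0.05. Relative to the all-gene median mec-17 and pfd-6 lost their calls, while ttll-4 and cct-5 were called higher, so 2 modifying enzymes and 1 folding gene were then higher and 0 lower. These counts stand beside the same 16.6% and 20.3% of all genes.

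Further lists held proteins that bind microtubules and the motors that walk on them, and their counts stand beside 9.84% of all genes called higher and 26.4% lower. Of 23 measured genes of microtubule-associated proteins 6 were higher and 0 lower, with a median of 0.57 in the authors' deposited table, and 8 had an unadjusted p below 0.05, ebp-2 (1.62) and cls-1 (−1.88) being the uncalled ones. Those with the smallest FDR were unc-119 (5.82), needed for axon development, the CLASP genes cls-2 (3.11) and cls-3 (2.28), whose products stabilize microtubules, and the MAP1-like gene maph-1.1 (1.92) in the authors' deposited table. The value of unc-119 lay above the 4.59 of snb-1, the highest of the 8 panneuronal genes, and strain and cell type cannot be told apart. The tau-like gene ptl-1 rose as well (2.37, FDR = 0.0196), and maph-1.3 (2.64), did so at an FDR of 0.0420 in the authors' deposited table. The genes maph-1.1 and maph-1.3 are related but separate, on chromosomes I and III. Their sequences were not compared, so whether reads were split correctly between them is unknown. Of 21 measured kinesin genes 4 were higher and 1 lower in the authors' deposited table. The axonal vesicle motor gene unc-104 (4.09), klp-4 (3.70), the kinesin-II subunit gene klp-20 (2.99) and the microtubule depolymerase gene klp-7 (1.89) rose in the authors' deposited table. The kinesin gene klp-6, which works in cilia of male sensory neurons, fell in the authors' deposited table. Its recovered degrees of freedom mark a group without reads, here the RIS libraries that entered the test, so its fold is not printed. Of 14 measured dynein and dynactin genes 0 were higher and 2 lower, with lis-1 (1.63) the third at an unadjusted p below 0.05 in the authors' deposited table. Set against the all-gene median, 4 were higher (dli-1, dyci-1, lis-1 and nud-2) and 1 lower, as xbx-1 lost its call. Both genes called lower as deposited serve transport in cilia: the heavy chain gene che-3 (−4.68) and the light intermediate chain gene xbx-1 (−3.87) in the authors' deposited table. The heavy chain gene of cytoplasmic transport, dhc-1, had −0.17 (interval −1.08 to 0.73, FDR = 0.759) in the authors' deposited table.

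**Figure D5:**
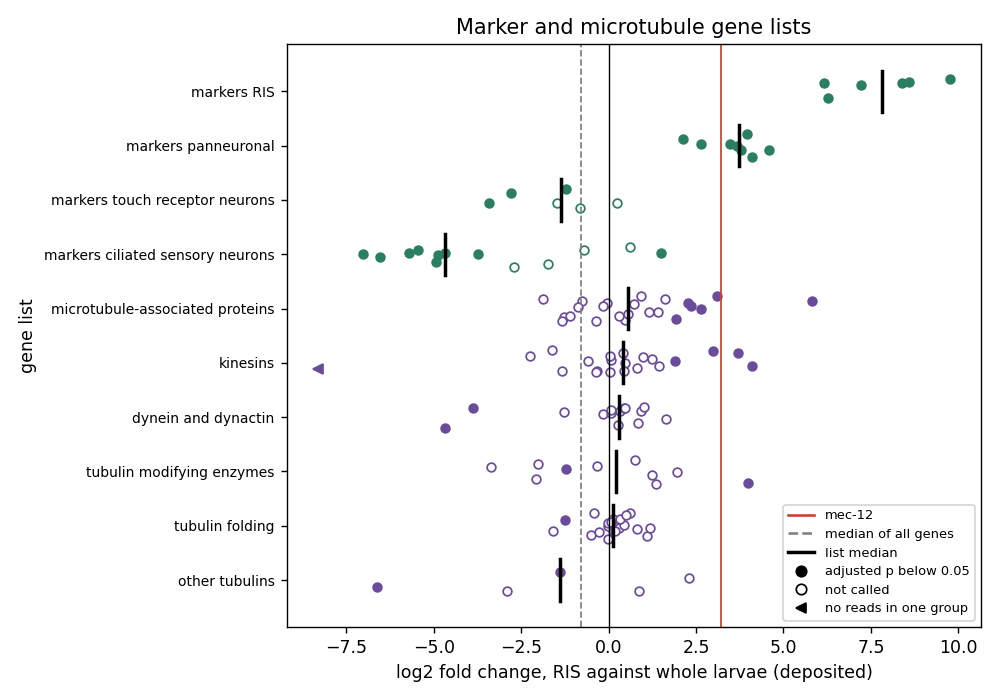
Deposited log2 fold change of every measured gene of 4 marker lists (green) and 6 microtubule lists (purple), with the list median as a black bar and mec-12 as a red line; filled points have an FDR below 0.05, and the triangle marks klp-6, without reads in the RIS libraries of the test. The red line at 3.21 runs through the panneuronal genes and to the right of all touch receptor neuron genes.

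With 1 comparison and no values per library, likeness to mec-12 can be judged only by the pair of fold change and mean level. The 3 genes with public names nearest to it by Euclidean distance in log2 fold change and log2 CPM were pck-1 (distance 0.21), hsp-1 (0.74) and ctc-3 (0.76). Of these pck-1, a phosphoenolpyruvate carboxykinase gene, had a log2 fold change of 3.18 (FDR = 0.0117), and hsp-1, a constitutive Hsp70 gene, had 2.50 (FDR = 0.0236) in the authors' deposited table. The mitochondrially encoded cytochrome oxidase gene ctc-3 had 2.45 (FDR = 0.00595) in the authors' deposited table. Likeness here means a similar position in the table and no more.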

How the data were processed

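RNA of sorted RIS neurons and of whole L1 larvae was made into cDNA with a low-input SMART-Seq kit and sequenced on an Illumina HiSeq instrument, per the labels' protocols. The sources used here do not give the aligner, the counter or the build. The authors' deposited table has 1 row for each of 12072 genes, with columns that, per the file headers, match the output of edgeR's quasi-likelihood test. Its log2 fold change, as deposited, has positive values where RIS is higher, as for flp-11, and its log2 CPM is a mean over both groups. The deposited F score belongs to a test with 1 numerator degree of freedom. The deposited p-value is unadjusted. Benjamini-Hochberg adjustment of it gave the deposited false discovery rate (FDR) within 3.44e-15. Library totals, filters and the prior count are unknown, so depth and the precision it gives are unknown. The table has 0 unused columns of per-sample values.

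A gene was called at a deposited FDR below 0.05. The denominator degrees of freedom were recovered from F and p (6.76 for most genes, 5.76 for 170), and dividing the size of the log2 fold change by the square root of F gave an approximate standard error. From these came 95% intervals, differences between genes and a test against the all-gene median, adjusted over all genes. Mean CPM is 2 to the power of the log2 CPM. Group levels assume that the mean weighs 3 RIS and 3 reference libraries equally, and the implied levels of all genes then sum to 1075994 CPM in RIS and 924970 CPM in whole larvae. The recovered degrees of freedom would instead go with 2 RIS libraries, a weighting given as the alternative. Exonic lengths came from Ensembl release 115 (WBcel235), where 12052 identifiers were found, all on the same chromosome, and 11 of the 15 tubulins in the table shared a start or end.

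The members and lists were chosen with earlier results of these data known. The rule for names took all members, all other tubulin genes, up to 4 called genes of each other list by adjusted p and up to 2 called the other way, and the 3 genes nearest to the member with the smallest adjusted p. Outside it, after their values were seen, atat-2, ptl-1, maph-1.3, klp-7, dhc-1, dli-1, dyci-1, nud-2, ttll-4, cct-5, lis-1, ebp-2, cls-1 and Y53G8B.1 were named. Python 3.11.15 was used with scipy 1.17.1, pandas 2.3.3, numpy 2.4.6 and, for plots, matplotlib 3.10.9.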

Additional observations from a re-analysis of the deposited data

How the results depend on the processing

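The count of 1 member higher was the same under an FDR below 0.01, a minimum fold of 2, fold changes set against the all-gene median, genes at or above the median log2 CPM, recomputed adjustment and genes with public names. The count of 1 lower became 0 among genes at or above the median log2 CPM, since tbb-6 lies below it. For the microtubule lists together, 11 higher became 5 at an FDR below 0.01 and 22 against the all-gene median. Their 7 lower became 3 under both of these and 4 among genes at or above the median log2 CPM. Against the all-gene median 16.6% of all genes were called higher and 20.3% lower. The ubiquitous median exceeded the neuron-class median by 0.44, and by 1.298 with mec-12 in neither class. Weighing 2 RIS libraries against 3 reference libraries gave mec-12 a share of 80.1% of the alpha-tubulin level in RIS and 26.7% in whole larvae, and coding length gave 77.6% and 23.3%. Which weighting matches the libraries of the authors' test is not stated, but the recovered degrees of freedom would go with 2 RIS libraries against 3. No paired analysis was possible because the table holds no values per library, and for the same reason no replicate could be left out. The protein comparison and the search for 50-base and 100-base words shared between members were not run.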
